A study of Mus musculus with 9 samples.

Results

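The 10 genes described here are Cd36, Lpl, Acsl1, Fabp5, Plin2, Apoe, Abca1, Abcg1, Nr1h3 and Pparg, chosen by gene symbol for their part in fatty acid handling or in the response of liver X receptor (LXR). They are 10 of the 54532 genes in a table of RNA levels in mouse spleen dendritic cells (DCs), and each symbol was found once. RNA was sequenced from 3 samples of each of 3 sorted populations, 9 samples in all. N-mDCs were mature conventional DCs from the spleen of normal mice given no treatment. T-mDCs were mature conventional DCs from the spleen of mice with T-cell acute lymphoblastic leukemia (T-ALL). T-DCs, sorted from leukemic spleens too, were CD11c+ with low surface MHCII. The study used female mice 6 to 8 weeks old, and both leukemic populations were taken on day 15 after leukemia cells were transplanted. Those leukemia cells carried a retrovirus with the intracellular domain of Notch1 and GFP, and their recipients, C57BL/6J or C57B6.SJL mice, were not irradiated. Red blood cells were lysed and CD11c+ cells were then enriched with beads before the sort. Neither the labels nor the study's methods say whether the 3 samples of a group came from separate animals, so p-values measure only the spread between these samples, which may be technical.

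Levels are in FPKM, the reads on a gene per kilobase of its length, scaled to a size for each library. Reads on genes ranged from 15360815 to 18440913 per sample, and the members held between 224 and 65428 reads in any sample. Differences were tested with limma on log2(FPKM + 1) over the 12746 genes that reached an FPKM of 1 in 3 samples or more, and a gene was called where its Benjamini-Hochberg adjusted p was under 0.05. All 10 members passed that filter. Differences and their standard errors (SE) are on the log2(FPKM + 1) scale, which understates the change of genes with low FPKM, and folds are 2 raised to the difference. FPKM is given as mean ± SD with n = 3 samples.

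The sort could be followed in the genes of the sorted proteins. Itgax, which encodes CD11c, was detected in every sample, at 151.6, 90.4 and 43.0 FPKM in T-DCs and at 158.4 to 230.2 FPKM in N-mDCs. H2-Ab1, which encodes a chain of MHCII, was at 121 to 512 FPKM in T-DCs and at 2301 FPKM or more in the other 6 samples. Of 5 conventional DC markers (Itgax, Zbtb46, Flt3, Dpp4 and Kit), 4 were called lower in T-DCs against N-mDCs and 4 against T-mDCs, and Itgax was not. None of the 5 was at 0 in any sample, and their summed level was 70.1 to 188 FPKM in T-DCs and 264 to 429 FPKM in N-mDCs.

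Several libraries stood apart. The summed level of 10 erythroid markers, such as the globin genes, was 59828 and 43181 FPKM in T-DC samples 2 and 3, against 631 FPKM in T-DC sample 1 and 26.0 to 5398 FPKM in the other groups. The summed level of 8 neutrophil markers was 4327 and 1514 FPKM in those same T-DC samples and 8.59 FPKM in T-DC sample 1. T-DC sample 1 in turn had the highest sum of 12 red pulp and tissue macrophage markers among T-DCs, at 4075 FPKM against 1345 and 806 FPKM, and T-mDC sample 1 the highest among T-mDCs, at 1899 FPKM against 547 in samples 2 and 3. T-mDC samples 2 and 3 were very close to each other, with a chi-square per gene of 1.85, where the other pairs within a group gave 8.11 or more. Their labels name them as separate samples and they differed by more than counting noise, so they were entered as 2, but whether they came from separate cells or from 1 preparation was not tested. Counted as 1 sample, all 3 member calls of T-DCs against T-mDCs and that of Fabp5 between T-mDCs and N-mDCs were lost. In sorted populations, fewer cells of a type and less RNA per cell cannot be told apart.

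As background, long-chain fatty acids reach myeloid cells through scavenger receptors such as CD36 or are released from lipoproteins by lipoprotein lipase. Acyl-CoA synthetases trap them inside the cell, fatty acid binding proteins carry them, and surplus is kept as neutral lipid in droplets coated by perilipins. PPARγ responds to fatty acids and LXRα, encoded by Nr1h3, to oxidised cholesterol. Both pair with RXR on DNA, and LXR turns on genes that load cholesterol onto apolipoproteins and export it.

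Cd36 and Acsl1 were higher in T-DCs than in both groups of mature DCs, and Fabp5 was higher in T-mDCs than in the other groups. The other 7 members were called in no comparison. Against N-mDCs, T-DCs had 2 of 10 members called higher, where 6.1% of all tested genes were, and 0 called lower, where 10.3% were. At an unadjusted p under 0.05 the number below N-mDCs was also 0. The samples of T-DCs and N-mDCs did not overlap in 3 members, where 32.4% of tested genes do not. Against T-mDCs, 2 members were called higher in T-DCs (5.44% of tested genes) and 1 lower (8.79%), and 4 members did not overlap (34.9%). Between T-mDCs and N-mDCs, 1 member was called higher in T-mDCs (0.69% of tested genes) and 0 lower (1.52%), with 2 lower at an unadjusted p under 0.05, and 4 members did not overlap (35.0%). With voom, which was fitted to the whole reads behind the FPKM, no member was called in this last comparison, and 2 had an unadjusted p under 0.05. The shares of members whose samples did not overlap were close to those of all tested genes. The median difference over the 10 members was 0.37 for T-DCs against N-mDCs, 1.06 for T-DCs against T-mDCs and -0.27 for T-mDCs against N-mDCs, beside medians of 0.05, 0.07 and 0.03 over all tested genes. Both T-DC comparisons use the same T-DC samples. The members were chosen with earlier results of these data known, so shares above those of all tested genes are descriptions and no independent evidence.

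**Figure D1:**
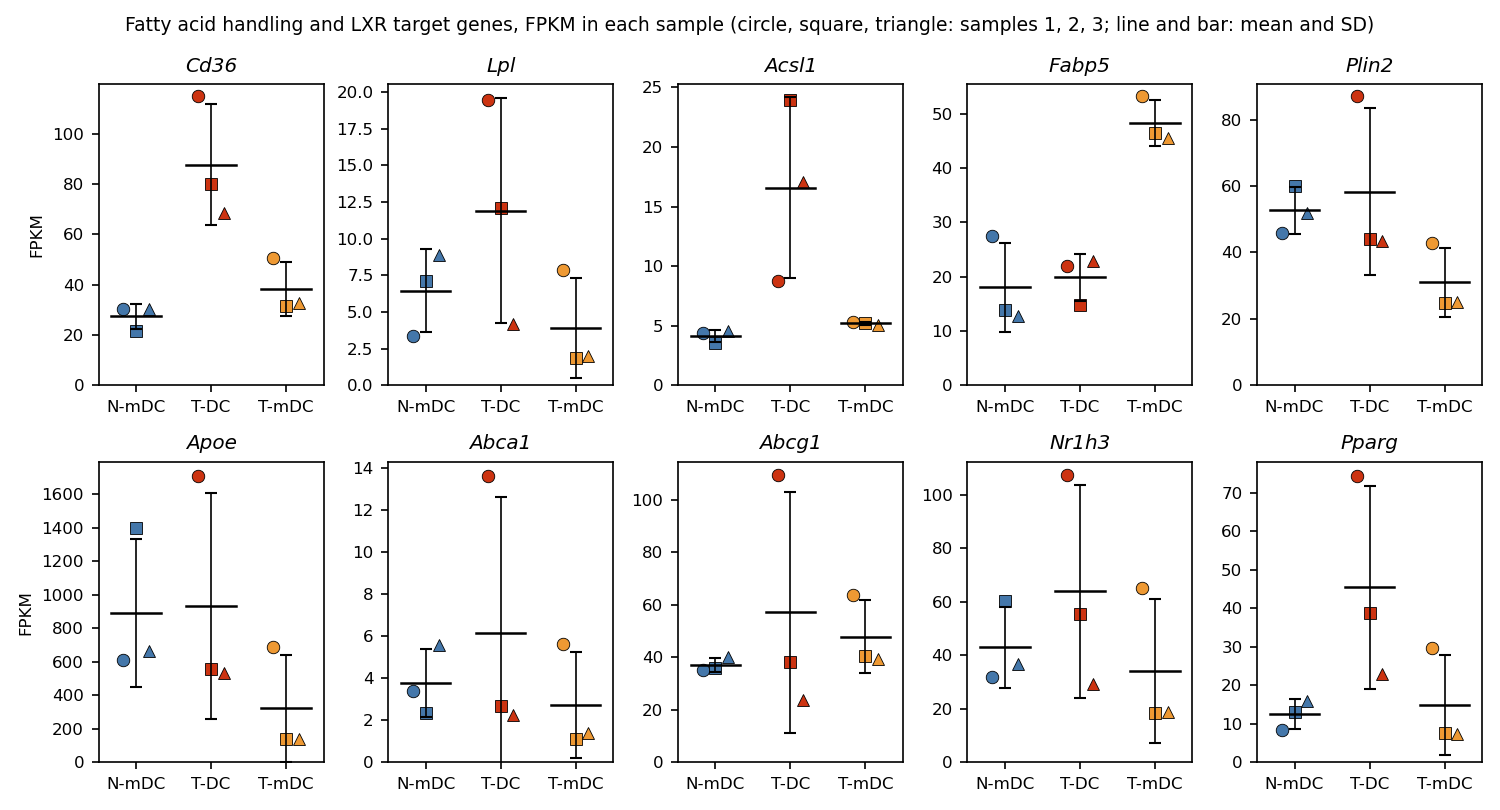
FPKM (vertical axes, linear and starting at 0) of the 10 members in each sample of the 3 populations, with sample 1 as a circle, sample 2 as a square, sample 3 as a triangle, and the mean and SD as a line and bar. Cd36 and Acsl1 of all T-DC samples lie above all mature DC samples, Fabp5 of all T-mDC samples lies above all others, and T-DC sample 1 is the highest T-DC sample in 8 of 10 panels.

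Cd36 encodes the scavenger receptor CD36, a fatty acid and oxidised lipoprotein receptor of macrophages and endothelium (chromosome 5, 17781690 to 17888801, minus strand, GRCm38). It was at 30.2, 21.7 and 30.3 FPKM in N-mDCs, at 115, 80.1 and 68.4 FPKM in T-DCs and at 50.7, 31.3 and 32.7 FPKM in T-mDCs. Every T-DC sample was above every mature DC sample. T-DCs thus had 87.8 ± 24.3 FPKM and N-mDCs 27.4 ± 4.92 FPKM, a 3.09-fold difference (log2 1.63, SE 0.27, limma adjusted p = 0.00645). This call was kept in all 24 alternative analyses, with log2 differences from 1.42 to 2.05. The value of 2.05 came with T-DC samples 2 and 3 both left out. T-DC sample 1 stood alone there and was assumed to vary like the others, so that fit held no spread among T-DCs. T-DC sample 1 was also the T-DC sample with the highest macrophage marker sum. The part of erythroid or macrophage RNA in the Cd36 difference was not tested.

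Against T-mDCs, Cd36 in T-DCs was 2.26-fold higher (log2 1.18, SE 0.27, adjusted p = 0.0241). The summed level of 6 monocyte markers was also higher, at 894 to 2123 FPKM in T-DCs against 259 to 762 FPKM in T-mDCs (999 to 2308 FPKM in N-mDCs), with none at 0. Of these markers 2 were called higher in T-DCs than in T-mDCs, Cx3cr1 (5.95-fold) and Lyz2 (3.64-fold), and 5 had an unadjusted p under 0.05. Ccr2 went the other way (log2 -0.35, adjusted p = 0.605). Lyz2 made up much of the T-DC sum, at 1400, 921 and 648 FPKM. Against N-mDCs none of the 6 was called higher in T-DCs, and Ccr2 and Fcgr1 were called lower (adjusted p = 0.0353 and 0.0307). The part of monocyte RNA in the members' differences was not tested. The Cd36 call was kept in 16 of 24 alternatives and was lost without T-DC sample 2, without T-mDC sample 2 or without T-mDC sample 3. Counting T-mDC samples 2 and 3 as 1 sample also ended it, as did TPM scaling, quantile normalization and a fit to the 2 groups alone. It was lost too with the erythroid marker level as a covariate, where its limma adjusted p was the largest of all alternatives, 0.203. Against T-mDCs that fit called 0 of the 12746 tested genes, so no gene kept such a call and the loss is not particular to Cd36. The Cd36 difference in it was 1.70 (SE 0.42). T-mDCs and N-mDCs differed by 0.45 (95% interval -0.17 to 1.07, adjusted p = 0.443), and all T-mDC samples were above all N-mDC samples.

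The RefSeq start of Cd36 lies inside the gene's span in the table, and the 300 bases around it were searched because Cd36 is a textbook target of PPARγ. Sequences were taken from RefSeq on GRCm38.p6, from 250 bases before to 50 after a start, and 7 of the 10 members had 13 such windows. The element searched on both strands was AGGTCA repeated after a spacer, with at most 2 mismatches in the 12 letters of both half-sites. A spacer of 1 base (DR1) is the arrangement bound by PPAR with RXR, and a spacer of 4 bases (DR4) that bound by LXR with RXR. DR1 matches were found in 3.86% of 32851 windows of all genes, and in 2 member windows, 1 each of Cd36 and Plin2. DR4 matches were found in 3.02% of all windows and in 0 of the member windows. The Cd36 and Acsl1 windows are shown because these members were called higher in T-DCs, with the DR1 match of Cd36 in capitals (the element reads on the opposite strand, and its first printed base is at -63 from the start) and none in the first Acsl1 window.
Cd36, chr5:17835847-17836146, minus strand: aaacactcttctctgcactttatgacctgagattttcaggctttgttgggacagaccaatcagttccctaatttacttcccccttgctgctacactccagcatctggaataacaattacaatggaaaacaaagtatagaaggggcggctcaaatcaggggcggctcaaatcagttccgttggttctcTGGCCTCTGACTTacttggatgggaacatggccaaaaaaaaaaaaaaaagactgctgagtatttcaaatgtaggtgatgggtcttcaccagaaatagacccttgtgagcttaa
Acsl1, chr8:46470787-46471086, plus strand: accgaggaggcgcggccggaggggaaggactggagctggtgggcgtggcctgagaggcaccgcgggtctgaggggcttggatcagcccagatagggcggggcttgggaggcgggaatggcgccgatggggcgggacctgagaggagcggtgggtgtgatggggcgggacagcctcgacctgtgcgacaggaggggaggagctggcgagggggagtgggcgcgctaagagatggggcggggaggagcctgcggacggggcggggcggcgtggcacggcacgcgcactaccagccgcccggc
Read on its own strand, the Cd36 match is AAGTCAgAGGCCA, and that of Plin2, at -225 from its start, is AGGTCAgGGGTCC, with the spacer in lower case. A match is a description of the letters and not of binding.

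Acsl1 encodes a long-chain acyl-CoA synthetase, which couples fatty acids to coenzyme A for storage or oxidation (chromosome 8, 46471037 to 46536051, plus strand). It was at 4.37, 3.55 and 4.52 FPKM in N-mDCs, at 8.73, 24.0 and 17.1 FPKM in T-DCs and at 5.30, 5.19 and 5.07 FPKM in T-mDCs. All T-DC samples were above all mature DC samples, and the 2 highest were the T-DC samples rich in erythroid and neutrophil RNA. T-DCs had 16.6 ± 7.63 FPKM and N-mDCs 4.15 ± 0.522 FPKM, a 3.19-fold difference (log2 1.68, SE 0.31, adjusted p = 0.00923). The call was kept in 23 of 24 alternatives and was lost with the erythroid marker level as a covariate (adjusted p = 0.0914). T-DC sample 1 alone, with T-DC samples 2 and 3 left out, was 0.92 above N-mDCs, in a fit that held no spread among T-DCs.

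Against T-mDCs, Acsl1 was 2.65-fold higher in T-DCs (log2 1.40, SE 0.31, adjusted p = 0.0204). This call was kept in 16 of 24 alternatives, and leaving out T-DC sample 2, T-DC sample 3, T-mDC sample 2 or T-mDC sample 3 ended it. It was also lost with T-mDC samples 2 and 3 as 1 sample, in a fit to the 2 groups alone and with the erythroid covariate, where the adjusted p was highest at 0.536. The fit with that covariate called 0 of all tested genes against T-mDCs, and the Acsl1 difference in it was 0.59 (SE 0.41). T-DC sample 1 alone was 0.65 above T-mDCs. The mean log2 level of the erythroid markers was 4.66, 10.68 and 10.48 in T-DCs and 3.22, 1.45 and 1.29 in T-mDCs. It did not overlap between these groups, so the covariate cannot be told apart from the comparison. No neutrophil covariate was fitted. The part of erythroid or neutrophil RNA in the Acsl1 difference was not tested. T-mDCs and N-mDCs differed by 0.27 (95% interval -0.43 to 0.97, adjusted p = 0.701), although the samples of the 2 groups did not overlap.

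Fabp5 encodes a cytosolic fatty acid binding protein found in skin, macrophages and DCs (chromosome 3, 10012548 to 10016607, plus strand). It was at 27.5, 13.9 and 12.7 FPKM in N-mDCs, at 22.0, 14.9 and 22.9 FPKM in T-DCs and at 53.3, 46.4 and 45.6 FPKM in T-mDCs. The T-mDC samples were the highest 3 of all 9, and the samples of N-mDCs and T-DCs overlapped. Fabp5 in T-mDCs exceeded N-mDCs 2.74-fold (log2 1.45, SE 0.30, adjusted p = 0.0468). Although its direction was the same in every alternative, this call was kept in 9 of 24, and leaving out any 1 of 7 samples ended it, namely N-mDC samples 2 or 3, T-DC samples 2 or 3 or any T-mDC sample. Its adjusted p over the alternatives ran from 0.00599 to 0.177. T-DCs were 2.40-fold below T-mDCs (log2 -1.26, SE 0.30, adjusted p = 0.0259). Without T-DC sample 2 or any 1 of the T-mDC samples that call was lost, as it was with T-mDC samples 2 and 3 as 1 sample, with no filter, with the erythroid covariate and with T-DC samples 2 and 3 both left out, and it was kept in 16 of 24 alternatives. T-DCs and N-mDCs differed by 0.19 (95% interval -0.48 to 0.86, adjusted p = 0.682).

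Lpl encodes lipoprotein lipase, which frees fatty acids from triglyceride-rich lipoproteins. It was at 3.35, 7.11 and 8.91 FPKM in N-mDCs, at 19.5, 12.1 and 4.15 FPKM in T-DCs and at 7.83, 1.88 and 1.98 FPKM in T-mDCs. T-DC samples 1 and 2 were above all mature DC samples, and T-DC sample 3 was within their range. The difference was 0.66 against N-mDCs (95% interval -0.71 to 2.04, adjusted p = 0.465) and 1.40 against T-mDCs (0.02 to 2.77, adjusted p = 0.160), and neither was called.

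Plin2 encodes perilipin 2, a coat protein of lipid droplets. It was at 46.0, 59.9 and 51.9 FPKM in N-mDCs, at 87.2, 44.1 and 43.6 FPKM in T-DCs and at 42.9, 24.8 and 25.2 FPKM in T-mDCs. Every T-mDC sample was below every sample of the other groups, T-mDC sample 1 only just. These differences did not pass the adjustment, at 0.86 for T-DCs against T-mDCs (95% interval 0.13 to 1.59, adjusted p = 0.110) and -0.78 for T-mDCs against N-mDCs (-1.51 to -0.06, adjusted p = 0.264). Both were called with array weights and with T-DC 1 and T-mDC 1 both left out. T-DCs and N-mDCs differed by 0.08 (-0.65 to 0.80, adjusted p = 0.891).

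**Figure D2:**
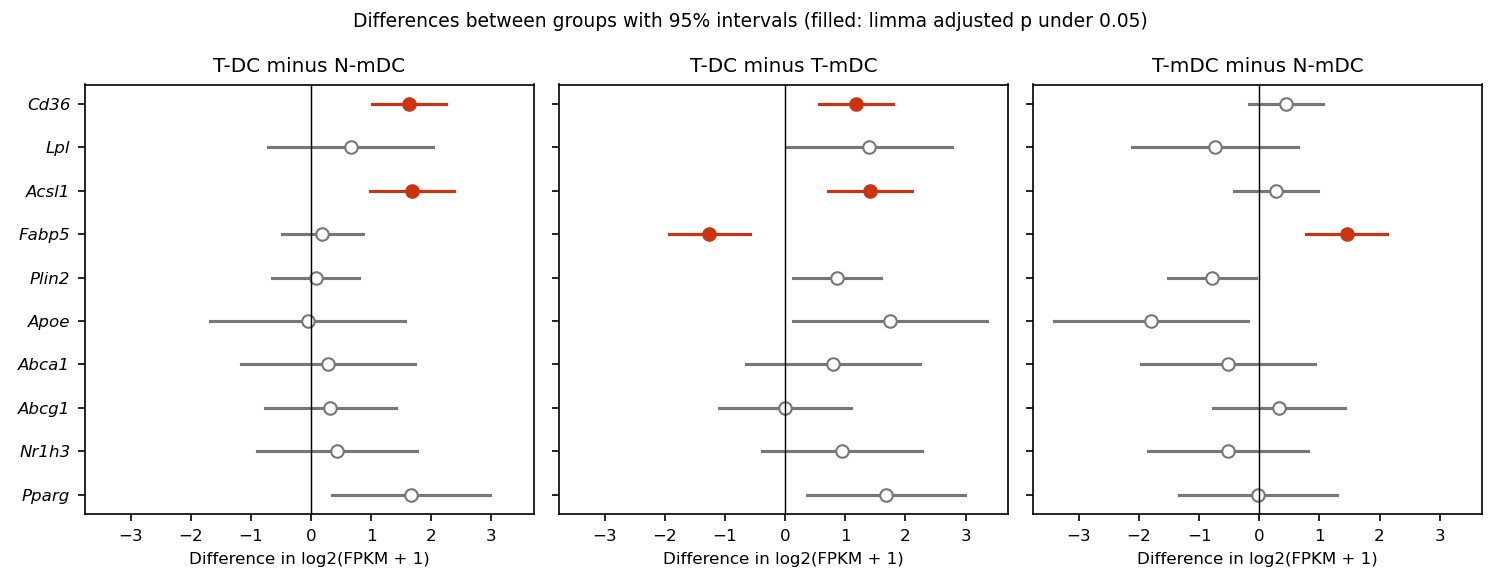
Differences in log2(FPKM + 1) (horizontal axes) of the 10 members for T-DC minus N-mDC, T-DC minus T-mDC and T-mDC minus N-mDC, with 95% intervals as lines and filled points where the adjusted p was under 0.05. The filled points are Cd36 and Acsl1 against N-mDCs, Cd36, Acsl1 and Fabp5 against T-mDCs, and Fabp5 between the mature groups.

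Of the 3 members that act in cholesterol export, Apoe encodes apolipoprotein E, an acceptor of exported lipid that macrophages make in quantity. It was at 610, 1401 and 665 FPKM in N-mDCs, at 1709, 556 and 532 FPKM in T-DCs and at 690, 140 and 137 FPKM in T-mDCs. The highest sample was 2.30, 3.21 and 5.04 times the lowest within the N-mDC, T-DC and T-mDC samples. T-DCs and N-mDCs differed by -0.06 (95% interval -1.67 to 1.56, adjusted p = 0.965). T-DCs were 1.75 above T-mDCs (0.13 to 3.36, adjusted p = 0.139) and T-mDCs 1.80 below N-mDCs (adjusted p = 0.249), and neither difference was called. Both were called in the fit with array weights and in that without T-DC 1 and T-mDC 1, and the first also without T-mDC sample 1.

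Abca1 and Abcg1 encode membrane transporters that move cholesterol onto apolipoprotein A-I and onto high-density lipoprotein, and both are textbook LXR targets. Abca1 was at 3.41, 2.37 and 5.58 FPKM in N-mDCs, at 13.6, 2.66 and 2.24 FPKM in T-DCs and at 5.63, 1.12 and 1.40 FPKM in T-mDCs. Abcg1 was at 35.3, 35.9 and 40.2 FPKM in N-mDCs, at 110, 38.3 and 23.9 FPKM in T-DCs and at 63.8, 40.5 and 39.4 FPKM in T-mDCs. T-DC sample 1 was the highest of all 9 samples for both transporters, and T-DC samples 2 and 3 were near or below the N-mDCs. The difference of T-DCs from N-mDCs was 0.28 for Abca1 (95% interval -1.17 to 1.72, adjusted p = 0.791) and 0.32 for Abcg1 (-0.77 to 1.41, adjusted p = 0.664). Without T-DC sample 1 both turned negative, to -0.42 and -0.29. With T-DC samples 2 and 3 left out, Abcg1 in T-DC sample 1 alone was 1.54 above N-mDCs. With all samples, the difference of T-DCs from T-mDCs was 0.79 for Abca1 (-0.66 to 2.23, adjusted p = 0.437) and -0.0025 for Abcg1 (-1.09 to 1.09, adjusted p = 0.998).

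The nuclear receptor genes of the set are Nr1h3 and Pparg. Nr1h3 was at 31.99, 60.3 and 36.7 FPKM in N-mDCs, at 107, 55.6 and 29.1 FPKM in T-DCs and at 65.3, 18.5 and 18.8 FPKM in T-mDCs. The groups overlapped in every comparison, T-DCs differing from N-mDCs by 0.43 (95% interval -0.91 to 1.76, adjusted p = 0.636) and from T-mDCs by 0.95 (-0.38 to 2.28, adjusted p = 0.311). Pparg was at 8.47, 13.2 and 16.0 FPKM in N-mDCs, at 74.5, 38.7 and 23.1 FPKM in T-DCs and at 29.8, 7.55 and 7.31 FPKM in T-mDCs. All T-DC samples were above all N-mDC samples, and 1 T-mDC sample, the first, was above the lowest T-DC sample. Its difference, 1.66 against N-mDCs (SE 0.58, 95% interval 0.35 to 2.97, adjusted p = 0.0791) and 1.68 against T-mDCs (0.37 to 2.99, adjusted p = 0.0863), was as large as that of Cd36 and Acsl1, with an SE about as wide as that of Abca1 or Nr1h3, and was not called. Each was called in 3 of 24 alternatives, which were array weights, the fit without T-mDC sample 1 and that without T-DC 1 and T-mDC 1. T-mDCs and N-mDCs differed in Pparg by -0.02 (-1.33 to 1.29, adjusted p = 0.990).

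Within groups, most members were high in the same library. T-DC sample 1 was the highest T-DC sample for 8 of 10 members, where it was the highest for 46.7% of tested genes, and the exceptions were Acsl1 (highest in sample 2) and Fabp5 (highest in sample 3). T-mDC sample 1 was the highest T-mDC sample for 10 of 10 members, where it was for 40.3% of tested genes. These are the libraries with the highest macrophage marker sums of their groups. None of the 12 macrophage markers was at 0 in any sample. None was called in any comparison, and at an unadjusted p under 0.05 there were 1 lower in T-DCs against N-mDCs, 2 higher in T-DCs against T-mDCs and 10 lower in T-mDCs against N-mDCs. Among N-mDCs the highest macrophage sum, 4711 FPKM, was in sample 2, which was the highest N-mDC sample for 3 of 10 members (39.9% of tested genes), among them Apoe and Nr1h3. The part of macrophage RNA in the members' levels was not tested. The sums were 2372 to 4711 FPKM in N-mDCs and 806 to 4075 FPKM in T-DCs, and T-DC samples 2 and 3 were below every N-mDC sample. In T-mDCs the sums were 1899, 547 and 547 FPKM, and T-mDC sample 1 was above T-DC samples 2 and 3. All 12 macrophage markers had differences above 0 in T-DCs against T-mDCs. Their median was 0.91, beside 0.07 over all tested genes.

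**Figure D3:**
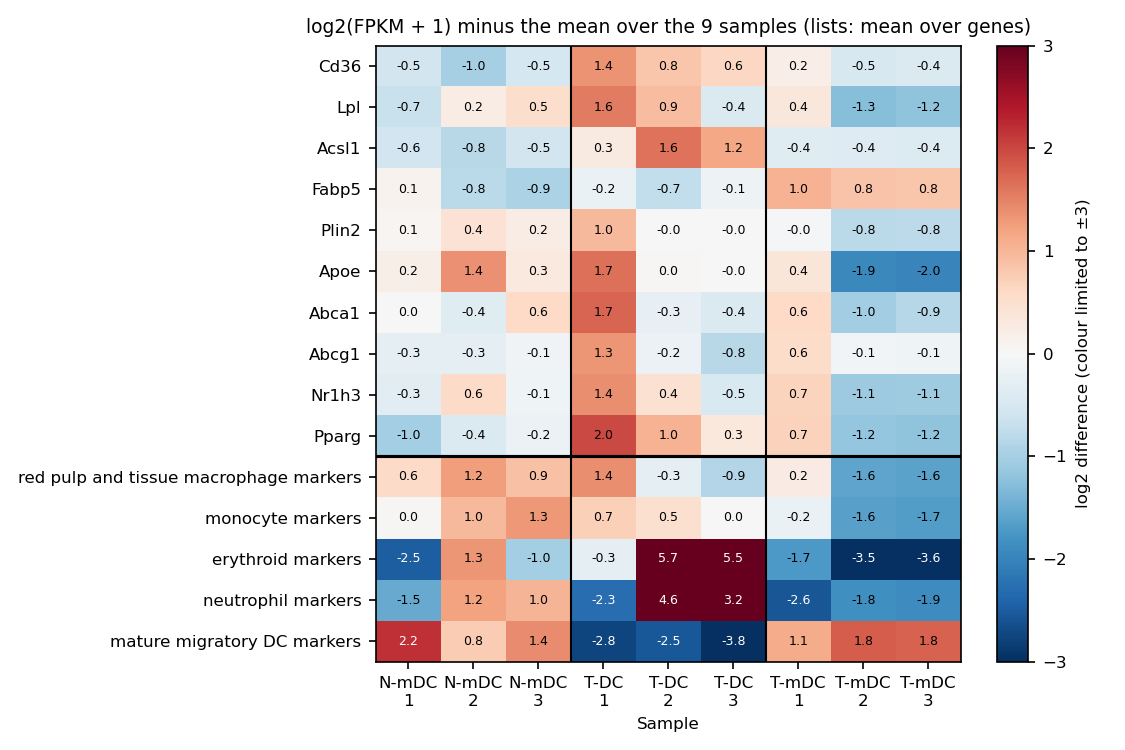
log2(FPKM + 1) of each member minus its mean over the 9 samples (columns), above the same for the mean over the genes of 5 marker lists, with red for above the mean and blue for below and the value printed in each cell. T-DC sample 1 and T-mDC sample 1 share high values of most members and of macrophage markers within their groups, while Acsl1 is highest where erythroid and neutrophil markers are.

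In order of FPKM, Apoe was the highest member and Abca1 the lowest in all 3 groups, and Apoe overlapped no other member in any of them. By mean FPKM over all listed genes, Apoe had rank 41 in N-mDCs, 30 in T-DCs and 108 in T-mDCs. In N-mDCs, Plin2 (52.61 ± 6.9997 FPKM), Nr1h3 (43.0 ± 15.2) and Abcg1 (37.1 ± 2.70) came next, each overlapping its neighbour, and Abcg1 was above Cd36 in all samples. Cd36 was the fifth member in N-mDCs, the second in T-DCs and the fourth in T-mDCs, though its T-DC samples overlapped those of Nr1h3, the third. Pparg was the seventh in both groups of mature DCs and the sixth in T-DCs (45.4 ± 26.3 FPKM), there above Fabp5 in all samples. Fabp5 was the second in T-mDCs (48.4 ± 4.23 FPKM), where it overlapped Abcg1. Lpl and Acsl1 overlapped in every group, and Acsl1 had the narrowest range of any member in T-mDCs (5.19 ± 0.114 FPKM, the highest sample 1.05 times the lowest). These levels rest on the gene lengths of the table. That of Abcg1 is 4066 bases, where the union of its exons in GENCODE M21 is 7298, and the 3567 bases used for Fabp5 exceed its basic transcript of 987 bases. The lengths used for Acsl1 (10483 bases), Lpl (10478) and Plin2 (3512) also exceed their longest basic transcripts, of 3897, 4115 and 1888 bases. The order of these members among genes could therefore change with another length.

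The other genes of these pathways were taken from 8 lists with 79 genes in all, of which 54 were tested. The lists were chosen with earlier results of these data known. Shares above those of all tested genes are thus descriptions and no independent evidence about the pathways. Against N-mDCs, T-DCs had 9 of the 54 called higher (16.7%, beside 6.1% of all tested genes) and 5 lower (9.26%, beside 10.3%). Against T-mDCs, T-DCs had 8 called higher (14.8%, beside 5.44%) and 3 lower (5.56%, beside 8.79%). T-mDCs had 1 called higher (1.85%, beside 0.69%) and 4 lower (7.41%, beside 1.52%) than N-mDCs. The shares called lower in T-DCs were thus near or under those of all tested genes. The counts of single lists stand beside the same shares of all tested genes. Of the 25 calls in the T-DC comparisons, 2 were kept with the erythroid marker level as a covariate, those of Dgat1 and Hilpda against N-mDCs. Over all tested genes that fit called 586 against N-mDCs, where the reported fit called 2096, and 0 against T-mDCs, where it called 1813. The loss of every call against T-mDCs in it is therefore not particular to these genes. Without T-DC samples 2 and 3, which leaves 1 T-DC sample, most of the 25 calls were lost too. The median difference over the 54 was 0.05, 0.38 and -0.08 in these comparisons, in that order.

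Of 16 other LXR target genes, 12 were tested. Lpcat3, which remodels phospholipids with polyunsaturated acyl chains, was at 8.04 to 10.2 FPKM in N-mDCs, at 19.4, 55.6 and 47.6 FPKM in T-DCs and at 7.47 to 12.03 FPKM in T-mDCs. It rose 3.84-fold against N-mDCs (adjusted p = 0.0109) and 3.898-fold against T-mDCs (adjusted p = 0.0113). Its highest levels were in the T-DC samples rich in erythroid RNA, and with the erythroid covariate or without T-DC samples 2 and 3 neither call was kept. The fit without T-mDC sample 2 or 3 lost the second call too. Smpdl3a, a phosphodiesterase gene induced by cholesterol in macrophages, was at 382, 145 and 134 FPKM in T-DCs and at 99.7, 25.3 and 26.2 FPKM in T-mDCs, 4.71-fold higher (log2 2.24, and 2.87 without T-mDC sample 1, adjusted p = 0.0348, kept in 10 of 24 alternatives and lost without any 1 sample other than T-DC sample 1 or T-mDC sample 1), and it was 3.64-fold above N-mDCs without being called (adjusted p = 0.0572).

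Other LXR targets fell. Arl4c, a small GTPase gene tied to cholesterol export, was at 61.2, 49.1 and 70.2 FPKM in N-mDCs, at 24.5, 13.6 and 7.29 FPKM in T-DCs and at 37.7, 67.1 and 68.7 FPKM in T-mDCs. Its T-DC level was 4.16-fold below N-mDCs (adjusted p = 0.0124) and 3.91-fold below T-mDCs (adjusted p = 0.0166), calls kept in 21 and 17 of 24 alternatives. Its lowest levels were in the T-DC samples rich in erythroid RNA. With the erythroid covariate the differences were -1.20 (adjusted p = 0.102) and -0.67 (0.527), without T-DC samples 2 and 3 they were -1.25 (0.104) and -1.16 (0.110), and neither call was kept in either fit. Without N-mDC sample 3 the first was lost, and without T-DC sample 2, T-mDC sample 2 or T-mDC sample 3 the second. Scd1, the stearoyl-CoA desaturase that makes monounsaturated fatty acids, was at 11.8 to 20.8 FPKM in N-mDCs and at 3.61, 3.78 and 1.10 FPKM in T-DCs, a 4.63-fold decrease (adjusted p = 0.0172, kept in 19 of 24 alternatives, and lost when sample 1 or 3 of N-mDCs or sample 3 of T-DCs was left out). In T-mDCs it was at 15.9, 5.01 and 4.87 FPKM. Scd1 was not called in T-DCs against T-mDCs (-1.23, adjusted p = 0.123) or in T-mDCs against N-mDCs (-0.98, adjusted p = 0.343). Fasn, the fatty acid synthase, named after its values were seen, was 1.79-fold lower in T-DCs than in T-mDCs (adjusted p = 0.0368, kept in 15 of 24, and lost when sample 1 or 3 of N-mDCs, sample 2 of T-DCs or sample 2 or 3 of T-mDCs was left out). Over the 12 tested targets, 1 was called higher and 2 lower against N-mDCs, 2 higher and 2 lower against T-mDCs, and 0 between T-mDCs and N-mDCs. Their medians were -0.06, 0.51 and -0.23. Mertk and Cd5l of this list are also on the macrophage marker list, and neither was called.

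Among 9 other genes of the PPAR pathway, 5 were tested, with 1 called higher and 1 lower in T-DCs against N-mDCs, 2 higher against T-mDCs, and 1 lower in T-mDCs against N-mDCs. Fabp4, the macrophage and adipocyte fatty acid binding protein and a classical PPARγ target, was at 1.81, 3.60 and 2.04 FPKM in N-mDCs, at 47.5, 15.6 and 14.2 FPKM in T-DCs and at 9.57, 1.22 and 1.09 FPKM in T-mDCs. It rose 6.79-fold against N-mDCs (log2 2.76, SE 0.67, adjusted p = 0.0262) and 6.30-fold against T-mDCs (log2 2.66, SE 0.67, adjusted p = 0.0322). Among the 6 other binding proteins listed beside Fabp5, Fabp4 alone was tested, since the rest did not reach the filter. The samples were ordered as for Pparg only in part, T-mDC sample 1 lying above the other mature DC samples for both. The Fabp4 calls were kept in 17 and 11 of 24 alternatives, and leaving out any N-mDC sample or T-DC sample 2 ended both, as did leaving out T-DC samples 2 and 3 together, with an adjusted p of 0.0584 and 0.0596. The second call was also lost without T-DC sample 3, T-mDC sample 2 or T-mDC sample 3, and its difference was 3.42 without T-mDC sample 1. Angptl4, a secreted inhibitor of lipoprotein lipase, was at 5.90, 13.4 and 16.0 FPKM in N-mDCs, at 3.01, 1.71 and 3.49 FPKM in T-DCs and at 1.27, 0.630 and 0.331 FPKM in T-mDCs. It was lower than in N-mDCs in both leukemic populations, 3.26-fold in T-DCs (adjusted p = 0.0177) and 6.99-fold in T-mDCs (adjusted p = 0.0124), each in 19 of 24 alternatives. Leaving out N-mDC sample 2 or 3 ended both calls, T-DC sample 2 the first, and T-mDC sample 2 or 3 the second. Angptl4 was also the only gene called of 6 partners of lipoprotein lipase, of which 3 were tested.

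**Figure D4:**
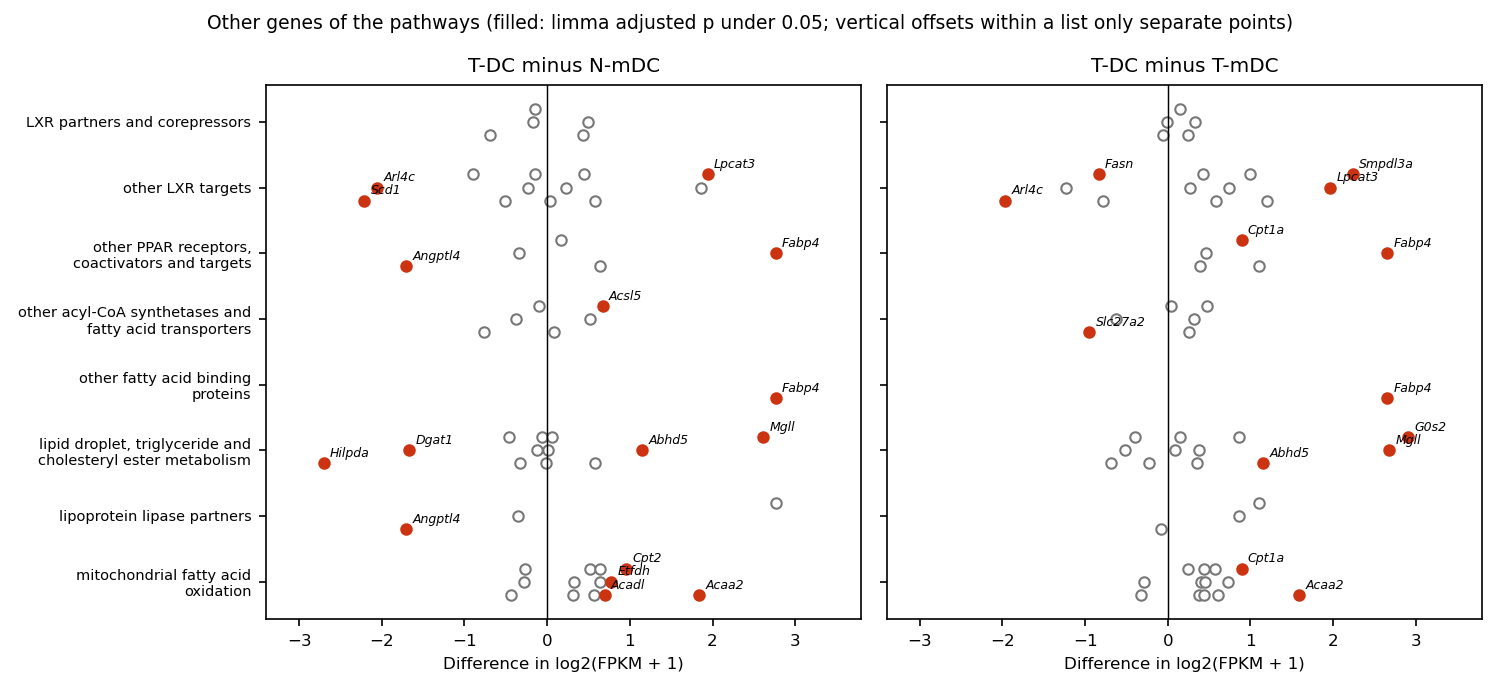
Differences in log2(FPKM + 1) (horizontal axes) of the tested genes in the 8 lists of other pathway genes (rows), for T-DC minus N-mDC and T-DC minus T-mDC, with called genes filled and named. Fabp4, Mgll, Lpcat3, Acaa2 and Abhd5 are called higher in both panels, Arl4c is called lower in both, and Hilpda, Dgat1, Angptl4 and Scd1 are called lower in the first.

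Fatty acids are activated and taken up by further synthetases and transporters, of which 6 of 10 were tested. Acsl5, a mitochondrial and endoplasmic reticulum acyl-CoA synthetase, was at 28.1 to 34.1 FPKM in N-mDCs and at 47.2, 47.1 and 51.6 FPKM in T-DCs, 1.60-fold higher (adjusted p = 0.0205, kept in 12 of 24 alternatives). That call was lost when sample 1 or 3 of N-mDCs or sample 2 or 3 of either leukemic population was left out. T-mDCs, at 39.7 to 41.6 FPKM, were above all N-mDC samples too. Their differences from N-mDCs (limma adjusted p = 0.212) and from T-DCs (0.297) were not called. Acsl3, Acsl4 and Acsl6 were named after their values were seen. Acsl3 and Acsl4 were called in no comparison, and Acsl6 did not pass the filter, with 0.722 and 2.28 FPKM in T-DC samples 2 and 3 and at most 0.0104 FPKM in the other samples. Slc27a2, a very-long-chain synthetase and transporter, was at low levels, 1.07 to 1.65 FPKM in T-mDCs and 0.103 to 0.327 FPKM in the other groups. Its T-mDC level was above T-DCs (log2 difference of T-DCs -0.95, adjusted p = 0.00928) and above N-mDCs (0.85, adjusted p = 0.045), calls kept in 21 and 10 of 23 alternatives, the second lost without any 1 sample other than T-DC sample 1.

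Genes of the lipid droplet and of triglyceride turnover moved in both directions, and 12 of 15 were tested. In T-DCs 2 were called higher and 2 lower against N-mDCs and 3 higher against T-mDCs, and in T-mDCs 3 were called lower against N-mDCs. Hilpda, a droplet protein that inhibits lipolysis, was at 52.3, 87.8 and 59.0 FPKM in N-mDCs, at 15.3, 6.26 and 7.76 FPKM in T-DCs and at 10.1 to 11.8 FPKM in T-mDCs. Dgat1, which completes triglyceride synthesis, was at 26.3 to 33.2 FPKM in N-mDCs, at 6.47 to 11.6 FPKM in T-DCs and at 6.50 to 6.87 FPKM in T-mDCs. T-DCs were below N-mDCs in both, 6.498-fold for Hilpda (adjusted p = 0.00164) and 3.17-fold for Dgat1 (adjusted p = 0.00207), and these calls were kept in all 24 alternatives. Against N-mDCs, T-mDCs were lower too, 5.54-fold for Hilpda (adjusted p = 0.0118, lost without N-mDC sample 2, T-mDC sample 2 or T-mDC sample 3) and 4.07-fold for Dgat1 (adjusted p = 0.00504, kept in all 24). The 2 leukemic populations overlapped in both genes.

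G0s2, an inhibitor of adipose triglyceride lipase, was at 8.15 to 29.6 FPKM in N-mDCs, at 7.19 to 19.7 FPKM in T-DCs and at 3.22, 0.0594 and 0 FPKM in T-mDCs. It was 7.496-fold higher in T-DCs than in T-mDCs (adjusted p = 0.0219, kept in 17 of 24, and lost without T-DC sample 3, T-mDC sample 2 or T-mDC sample 3) and 9.43-fold lower in T-mDCs than in N-mDCs (adjusted p = 0.045, kept in 9 of 24, and kept of the fits without 1 sample only without T-DC sample 1 or T-mDC sample 1). Without T-mDC sample 1 the differences were 3.58 and -3.92, against 2.91 and -3.24 with it. Mgll, the monoglyceride lipase, was at 2.30, 24.8 and 28.2 FPKM in T-DCs and at 0.857 to 1.65 FPKM in the mature DCs, and was called higher against both groups (6.11-fold, adjusted p = 0.0399 and 6.39-fold, adjusted p = 0.0401). Abhd5, a lipase activator named after its values were seen, was at 2.78, 6.68 and 6.44 FPKM in T-DCs and 2.22-fold higher against either group (adjusted p = 0.025 and 0.0268). Like Lpcat3 and Acsl1, Mgll and Abhd5 were highest in the T-DC samples rich in erythroid RNA. With T-DC samples 2 and 3 left out, neither was called, and their differences from N-mDCs were 0.57 for Mgll and 0.49 for Abhd5. The Mgll calls were kept in 8 and 9 of 23 alternatives and were lost without any 1 sample other than T-DC sample 1. Without that sample the differences were 3.63 and 3.69, against 2.61 and 2.68 with it, and with the erythroid covariate they were 0.83 and -0.0023. The Abhd5 calls were kept in 13 of 23 alternatives each, both lost without T-DC sample 2 or 3, the first also without any 1 N-mDC sample and the second without T-mDC sample 2 or 3.

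Of 14 genes of mitochondrial fatty acid oxidation, 13 were tested, and 10 had differences above 0 in T-DCs against N-mDCs and 11 against T-mDCs, with medians of 0.57 and 0.44. Called higher against N-mDCs were 4 and against T-mDCs 2, and none was called lower or at an unadjusted p under 0.05 in that direction. Acaa2, the thiolase of the last step of each cycle, was at 15.2, 23.2 and 13.3 FPKM in N-mDCs, at 51.8, 56.7 and 83.5 FPKM in T-DCs and at 29.3, 15.9 and 17.3 FPKM in T-mDCs, all T-DC samples lying above all others. It rose 3.59-fold against N-mDCs (adjusted p = 0.00647, kept in 22 of 24 alternatives, and lost with the erythroid covariate or without T-DC samples 2 and 3) and 3.02-fold against T-mDCs (adjusted p = 0.0124, kept in 19 of 24, and lost without T-mDC sample 2 or T-mDC sample 3). Cpt1a, which makes the acylcarnitines that enter mitochondria, was 1.86-fold higher than in T-mDCs (adjusted p = 0.0498, kept in 9 of 24, and lost without any 1 sample other than T-DC sample 2 or T-mDC sample 1). Cpt2 and Etfdh were 1.94-fold and 1.71-fold higher than in N-mDCs (adjusted p = 0.0237 and 0.0397, kept in 17 and 8 of 24), and Acadl, named after its values were seen, 1.62-fold (adjusted p = 0.0414, kept in 7 of 24). All T-mDC samples of Cpt2 (5.19 to 7.40 FPKM) and Acadl (52.3 to 55.5 FPKM) were above all N-mDC samples too. Neither gene was called between T-mDCs and N-mDCs or between T-DCs and T-mDCs. The calls of Etfdh and Acadl were lost without any 1 sample other than T-DC sample 1, and that of Cpt2 when sample 1 or 3 of N-mDCs or sample 3 of T-DCs was left out. Those of Cpt1a, Cpt2, Etfdh and Acadl were all lost with the erythroid covariate and without T-DC samples 2 and 3. Cpt2, Etfdh and Acadl were highest in T-DC sample 3, at 10.7, 9.73 and 83.4 FPKM, a sample rich in erythroid RNA.

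Some genes had profiles over the 9 samples close to those of the called members. Closeness was measured as the root mean square difference between log2(FPKM + 1) profiles, each centred on its own mean, over all 12746 tested genes. Nearest to Cd36 were Gzf1 (0.11), Heg1 (0.15) and Smurf2 (0.18). Nearest to Acsl1 were Carm1 (0.15), Map4k5 (0.15) and Adam10 (0.16), with Carm1 at 11.2 to 30.9 FPKM in T-DCs and 4.93 to 8.36 FPKM in mature DCs. Fabp5 had no gene as close. Its nearest were Gm29282 (0.26), Tm4sf19 (0.27) and Gm11425 (0.30), whose levels were low, with Tm4sf19 at 2.53 to 3.16 FPKM in T-mDCs and at most 1.07 FPKM elsewhere.

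**Figure D5:**
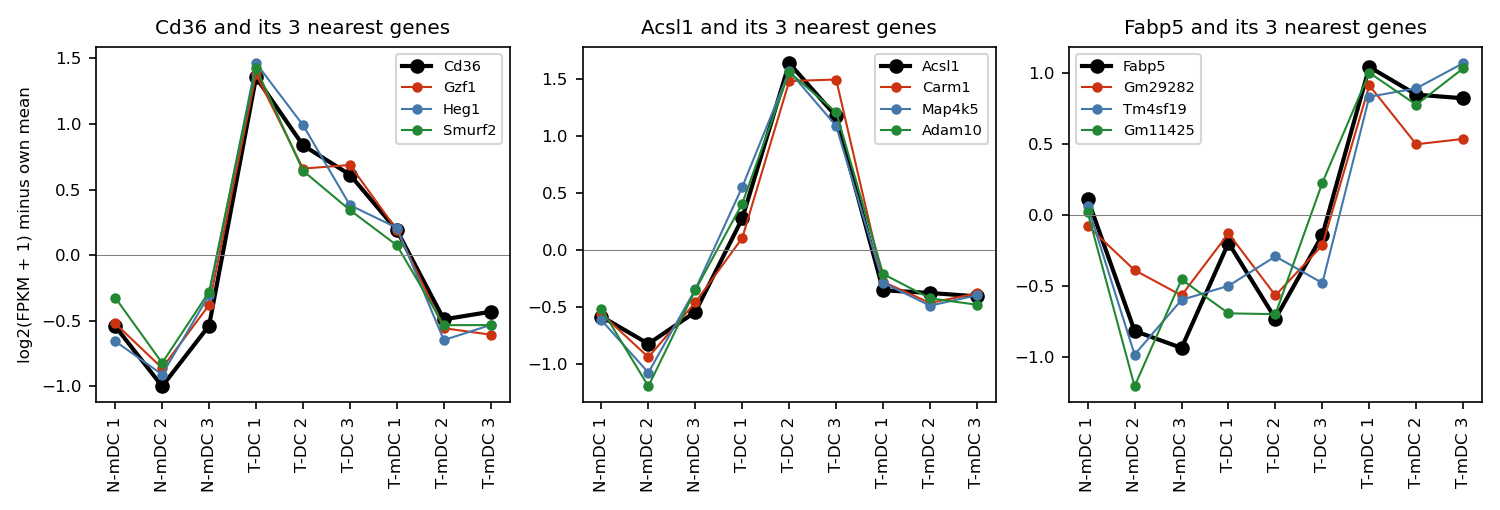
log2(FPKM + 1) minus the gene's own mean (vertical axes) in the 9 samples (horizontal axes) for Cd36, Acsl1 and Fabp5 in black and for the 3 genes with the nearest profile to each in colour; lines only join samples of 1 gene. The Cd36 panel peaks at T-DC sample 1 and the Fabp5 panel at the T-mDC samples. Acsl1, Map4k5 and Adam10 peak at T-DC sample 2, while Carm1 is about as high in T-DC sample 3 (30.9 FPKM) as in T-DC sample 2 (30.7 FPKM).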

How the data were processed

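RNA was sequenced from 9 samples of sorted mouse spleen DCs, 3 from each of 3 populations, grouped by GEO's labels. The authors deposited FPKM for 54532 genes on mm10 (per the labels), with gene positions and lengths. Their aligner, counter and RNA-seq test are not given in the sources used here. FPKM times gene length, divided by a step fitted for each library, was within 0.01 of a whole read for 100% of the values checked, which left out the highest ones. Rounding gave the reads on genes. Values were analysed as log2(FPKM + 1) for genes that reached an FPKM of 1 in 3 samples or more, with limma 3.58.1 in R 4.3.3 (all groups in 1 fit, eBayes with trend, Benjamini-Hochberg, threshold 0.05), and the procedure was tested on simulated data. The members and lists were chosen with earlier results of these data known.

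The members were named in full. Of each other pathway list, up to 4 genes with the largest change among those called in a T-DC comparison were named, with the 3 nearest profiles of each called member. Marker genes were named where their level stands beside a result, and genes outside this rule are marked in the text. Alternatives were a pseudocount of 0.1, no filter, a filter at FPKM 5, TPM, quantile and median-of-ratios scaling, a fit of only the groups compared, no variance trend, array weights, voom on the recovered reads, the replicate number as a block, T-mDC samples 2 and 3 averaged, an erythroid covariate and leaving out each sample. Leaving out T-DC 1 with T-mDC 1, and T-DC 2 with T-DC 3, was chosen after seeing the data.

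Gene models came from GENCODE M21 and promoter windows from RefSeq, both on GRCm38. Overlapping genes held at most 23 reads. Whether the counting used strand is not stated. The result of 1 of the 8 pathway lists is not reported here on its own.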

Additional observations from a re-analysis of the deposited data

How the results depend on the processing

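With 3 samples per group, 1 library often decided a call. Leaving out each sample in turn, the number of members called ranged from 2 to 3 for T-DCs against N-mDCs (2 with all samples), from 0 to 4 for T-DCs against T-mDCs (3) and from 0 to 1 for T-mDCs against N-mDCs (1). The number for T-DCs against N-mDCs was 4 with array weights and 1 with the erythroid covariate. For T-DCs against T-mDCs it was 1 in a fit of only the groups compared, 9 with array weights, 6 without T-DC 1 and T-mDC 1, 1 without T-DC 2 and T-DC 3, and 0 with T-mDC 2 and 3 as 1 sample or with the erythroid covariate, each with 3 at an unadjusted p under 0.05 by limma. For T-mDCs against N-mDCs it was 4 with array weights, 3 without T-DC 1 and T-mDC 1, and 0 with a pseudocount of 0.1, no filter, the FPKM 5 filter, TPM, voom, the replicate block, T-mDC 2 and 3 as 1 sample and the erythroid covariate, with 1 to 3 at an unadjusted p under 0.05. The causes were not tested.

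Directions turned only in differences with an adjusted p of 0.636 or more, and in Mgll. For T-DCs against N-mDCs these were Fabp5 (-0.38 with array weights), Plin2 (-0.035 with TPM, -0.060 with quantile normalization, -0.15 with array weights and -0.25 without T-DC 1 and T-mDC 1), Apoe (0.39 with quantile normalization, 0.11 with the erythroid covariate and 1.04 without T-DC 2 and T-DC 3), Abca1 (-0.43 with array weights, -0.42 without T-DC 1 and T-mDC 1), Abcg1 (-0.29 without T-DC 1 and T-mDC 1) and Nr1h3 (-0.039 without T-DC 1 and T-mDC 1). For T-DCs against T-mDCs they were Abcg1 (1.27 with the erythroid covariate, 1.21 without T-DC 2 and T-DC 3) and Mgll (-0.0023 with the erythroid covariate). For T-mDCs against N-mDCs they were Abcg1 (-0.10 with the erythroid covariate) and Pparg (0.18 with TPM, 0.052 with voom, 0.29 with T-mDC 2 and 3 as 1 sample). Leaving out 1 sample at a time, the ranges that crossed 0 were -0.0054 to 0.52 for Fabp5, -0.25 to 0.24 for Plin2, -0.61 to 0.32 for Apoe, -0.42 to 0.67 for Abca1, -0.29 to 0.79 for Abcg1 and -0.039 to 0.88 for Nr1h3 against N-mDCs, -0.61 to 0.47 for Abcg1 against T-mDCs and -0.64 to 0.30 for Pparg in T-mDCs against N-mDCs.

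The genes called among all tested ranged from 586 (erythroid covariate) to 8485 (array weights) for T-DCs against N-mDCs (2096 in the reported fit), from 0 to 9923 under the same settings for T-DCs against T-mDCs (1813, and 1821 genes had an unadjusted p under 0.05 by limma where 0 were called), and from 23 to 3841 for T-mDCs against N-mDCs (282). TPM scaling moved the median of all genes to -0.23 for T-DCs against T-mDCs, with 376 called higher and 1339 lower where the reported fit has 693 and 1120, and to 0.23 for T-mDCs against N-mDCs, with 49 and 50 where it has 88 and 194. The numbers of the samples were not used to pair them in the reported fit. Deviations of same-numbered samples from their group means correlated from -0.47 to 0.27. With 3 samples per group this cannot show whether samples shared an animal, and neither the labels nor the study's methods say. With the replicate block, 2 members were called for T-DCs against N-mDCs and 3 against T-mDCs, and Fabp5 alone changed its call among the members.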
